A study of Mus musculus with 12 samples.

Results

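The SR, hnRNP and RBM genes encode RNA-binding proteins, most of which act in pre-mRNA splicing. They were taken from the expression table by symbol, as the rows whose names begin with *Srsf* or *Rbm* and a digit or with *Hnrnp*, with the cold-inducible *Rbm3* left out. The rule found 69 genes of the 21859 in the table, of which 11 were SR, 20 hnRNP and 38 RBM genes. No measured value entered the rule. RNA-seq was performed on GFRa1+/KIT- spermatogonia of mice labelled WT, which carried GFRa1-EGFP according to the methods of the study. There were 5 control and 7 cryptorchid libraries, all 10 days after surgery on mice 8 to 10 weeks old. One testis was attached inside the abdomen, and the other, left in the scrotum, was the control. Enzyme digestion took 9 min and was run at 37°C for cryptorchid but 32°C for control testes, a difference in handling that cannot be told apart from the condition. RNA equal to that of about 200 sorted cells was amplified for each library. Which libraries share a mouse was not stated, so *P*-values measure the spread between these libraries.

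SR proteins pair an RNA recognition motif with a tail rich in arginine and serine, bind enhancer sequences in exons and recruit the spliceosome, and kinases of the CLK and SRPK families control them by phosphorylating the tail. hnRNP proteins coat nascent transcripts and often repress the use of nearby splice sites. RBM genes share little more than a name given for the RNA recognition motif, and their products range from spliceosome subunits to tissue-specific splicing regulators. Many SR and hnRNP genes limit their own mRNA through exons that trigger nonsense-mediated decay, and the testis is known as a tissue with much alternative splicing.

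The libraries held 4511730 to 24345368 reads on genes in the control group (median 7603202) and 3306771 to 20027902 in the cryptorchid group (median 4611830). The values fell into sets that neither the labels nor the methods describe, namely replicates 1 to 3 of both groups (set 1) and all later replicates (set 2). They differed in depth and in the share of even read numbers among low values. Spermatocyte genes summed to 833 to 1031 RPM (reads scaled to a common library total) in set 1 and 1209 to 2510 RPM in set 2. Sums of differentiating spermatogonial genes were 262 to 574 and 614 to 833 RPM. Those of the other cell types listed below overlapped between the sets. What set them apart was not tested. Both groups were present in both sets. *Gfra1*, the GDNF receptor gene behind the sort, was at 7.88 ± 0.88 log2 RPM (reads scaled to a common library total) in control and 8.40 ± 0.70 in cryptorchid libraries (mean ± SD). *Kit*, which marks differentiating spermatogonia, was at 4.49 ± 0.63 and 4.94 ± 0.57. Spermatid genes were present in these sorted cells and lower in the cryptorchid group, where 6 of 14 passed an unadjusted *P* of 0.05 and all 14 had the lower mean. Their summed level was 879 to 4418 RPM in control and 89.1 to 2934 RPM in cryptorchid libraries. Of 7 endothelial genes, 3 were higher at the same threshold (summed level 10.0 to 29.9 RPM against 19.2 to 52.6 RPM). Sertoli genes summed to 163 to 678 RPM in control and 166 to 662 RPM in cryptorchid libraries and macrophage genes to 237 to 426 RPM and 183 to 432 RPM, with none past the threshold, as for 3 tested Leydig genes, a list in which *Hsd3b6* had no reads in any library. At that threshold 5.67% of all tested genes were higher and 3.82% lower. By the same count 1 of 18 undifferentiated spermatogonial genes was lower and 2 of 14 spermatocyte genes were higher. Of 8 differentiating and 5 peritubular myoid genes 1 each was higher and 1 lower. The part of these cells in the differences below was not tested.

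The starts of the SR and hnRNP genes lay in CpG-rich sequence, whereas those of RBM genes were mixed. RefSeq promoter windows on GRCm38.p6, taken as the 250 bases before a start, were found for 59 of the 69 genes (76 windows). CpG dinucleotides reached 0.6 of the number expected from base composition in 100% of SR windows, 96.3% of hnRNP windows and 71.4% of RBM windows, against 55.1% of the windows of tested genes. The GC box GGGCGG, read on both strands, was in 92.9% of SR, 74.1% of hnRNP and 34.3% of RBM windows, against 51.4% over tested genes. The ETS core CCGGAAG was in 42.9% of SR windows (6 of 14) against 11.1%. The CCAAT box was in 63.0% of hnRNP windows (17 of 27) against 35.0%. These were windows of 11 SR and 18 hnRNP genes. Overlapping windows of the same gene, such as those of *Srsf4*, were each counted. The heat shock element core GAANNTTC, which reads the same on both strands, was in 6.58% of member windows against 5.32%. These shares are descriptions of letters in short windows, and no test was run on them.

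Windows are shown for the most abundant SR and hnRNP genes per length, *Srsf7* and *Hnrnpa2b1*. Beside them are those of 4 RBM genes whose levels passed the unadjusted threshold. *Rbm27*, which also passed it, had no window among those found. The windows shown span the range from CpG-rich to CpG-poor starts. Each is given 5′ to 3′ on the strand of the gene and ends at the base before the start, with every CG dinucleotide in capitals. *Srsf7* (chr17:80207306-80207555, minus strand) held 23 CG and 3 GC boxes, and *Hnrnpa2b1* (chr6:51469846-51470095, minus strand, the first of its windows in the table) held 28 CG.
Srsf7: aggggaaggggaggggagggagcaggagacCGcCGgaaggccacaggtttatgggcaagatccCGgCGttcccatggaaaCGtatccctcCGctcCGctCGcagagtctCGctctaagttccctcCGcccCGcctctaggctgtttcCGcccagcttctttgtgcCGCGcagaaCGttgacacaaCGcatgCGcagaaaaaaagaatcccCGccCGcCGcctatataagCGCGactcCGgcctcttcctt
Hnrnpa2b1: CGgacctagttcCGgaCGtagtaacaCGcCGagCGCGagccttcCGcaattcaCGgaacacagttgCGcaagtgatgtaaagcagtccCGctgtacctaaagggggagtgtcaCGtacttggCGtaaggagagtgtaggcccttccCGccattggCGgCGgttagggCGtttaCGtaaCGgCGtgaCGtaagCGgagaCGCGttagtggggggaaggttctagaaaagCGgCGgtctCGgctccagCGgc
*Rbm38* (chr2:173021652-173021901, plus strand) held 28 CG, as many as *Hnrnpa2b1*. *Rbm48* (chr5:3596548-3596797, minus strand) held 14 and *Rbm24* (chr13:46418050-46418299, plus strand) 12, the latter with an observed to expected ratio of 0.494.
Rbm38: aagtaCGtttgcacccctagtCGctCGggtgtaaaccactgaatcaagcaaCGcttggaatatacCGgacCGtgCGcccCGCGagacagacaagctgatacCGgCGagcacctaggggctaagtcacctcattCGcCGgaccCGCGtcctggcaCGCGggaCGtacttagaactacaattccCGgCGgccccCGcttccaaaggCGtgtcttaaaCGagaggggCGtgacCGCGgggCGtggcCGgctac
Rbm48: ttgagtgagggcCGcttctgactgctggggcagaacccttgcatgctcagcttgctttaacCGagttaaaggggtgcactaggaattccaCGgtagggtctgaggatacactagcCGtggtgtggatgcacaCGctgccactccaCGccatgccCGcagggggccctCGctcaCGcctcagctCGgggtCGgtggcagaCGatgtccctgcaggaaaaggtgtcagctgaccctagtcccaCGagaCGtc
Rbm24: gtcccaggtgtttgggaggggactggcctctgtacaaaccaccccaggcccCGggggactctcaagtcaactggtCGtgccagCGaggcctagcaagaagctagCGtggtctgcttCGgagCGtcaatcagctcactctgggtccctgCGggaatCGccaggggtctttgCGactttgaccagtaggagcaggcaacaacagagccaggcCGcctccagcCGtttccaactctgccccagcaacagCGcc
*Rbm47* had 3 annotated starts. The window at chr5:66098180-66098429 (minus strand) held 1 CG and the one at chr5:66150979-66151228 held 11, with ratios of 0.0758 and 0.794. The third, farthest upstream, held 7 with a ratio of 0.648 and is not shown.
Rbm47, downstream start: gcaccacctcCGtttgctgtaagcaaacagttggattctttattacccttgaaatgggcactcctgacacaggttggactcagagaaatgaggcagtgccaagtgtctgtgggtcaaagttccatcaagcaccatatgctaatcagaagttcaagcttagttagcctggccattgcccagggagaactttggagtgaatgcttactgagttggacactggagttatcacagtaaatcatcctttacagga
Rbm47, middle start: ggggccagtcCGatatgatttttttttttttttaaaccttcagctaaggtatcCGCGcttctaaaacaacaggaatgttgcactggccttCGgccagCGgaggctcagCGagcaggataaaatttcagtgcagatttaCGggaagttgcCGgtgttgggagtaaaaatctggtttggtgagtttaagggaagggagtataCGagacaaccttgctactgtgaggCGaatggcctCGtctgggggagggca

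All 69 genes passed the filter on low values (log2 of the mean RPM above -1), as did 16932 genes of the table in all. Per kilobase of mRNA, the geometric mean level in control libraries ran from 0.0539 to 419 RPM with a median of 24.4. The family medians were 61.6 RPM per kilobase for SR, 50.2 for hnRNP and 10.9 for RBM genes. *Hnrnpa2b1*, whose protein packages nascent RNA with that of *Hnrnpa1*, stood first at 419 RPM per kilobase, followed by *Hnrnpk*, which binds C-rich RNA, at 307 and *Hnrnpa1* at 296. Neither *Hnrnpa2b1* over *Hnrnpk* (0.45 ± 0.63) nor *Hnrnpk* over *Hnrnpa1* (0.05 ± 0.39) lay beyond the spread over control libraries (log2 scale, SD). *Hnrnpa2b1* was above *Hnrnpa1* in every control library. *Hnrnpab* came next at 129, below *Hnrnpa1* in all 5 control libraries. *Rbm39*, a relative of the splice site factor U2AF65, led the RBM genes at 190 RPM per kilobase and exceeded the next, *Rbm42* at 69.0, by 1.46 ± 0.41 on the log2 scale (SD over 5 control libraries). Among SR genes *Srsf7* at 142 exceeded *Srsf3* at 113 by 0.34 ± 0.17, whereas the neighbours from *Srsf3* down to *Srsf6* did not differ beyond their spread. The lead of *Srsf7* rests on the mRNA lengths used, 1.664 kb against 2.618 kb. Before division by length *Srsf3* was the higher, at 8.20 log2 RPM against 7.89. Transcript bases also found in other genes made up 37.1% of *Srsf3* and 0% of *Srsf7*. At the other end, *Rbm24*, *Rbm31y*, *Rbm8a2*, *Rbm12b2*, *Srsf12* and *Rbm15b* were below 1 RPM per kilobase. In all, 52 of the 69 genes had at least 100 reads in every library, while 5 had none in at least 1 library.

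**Figure D1:**
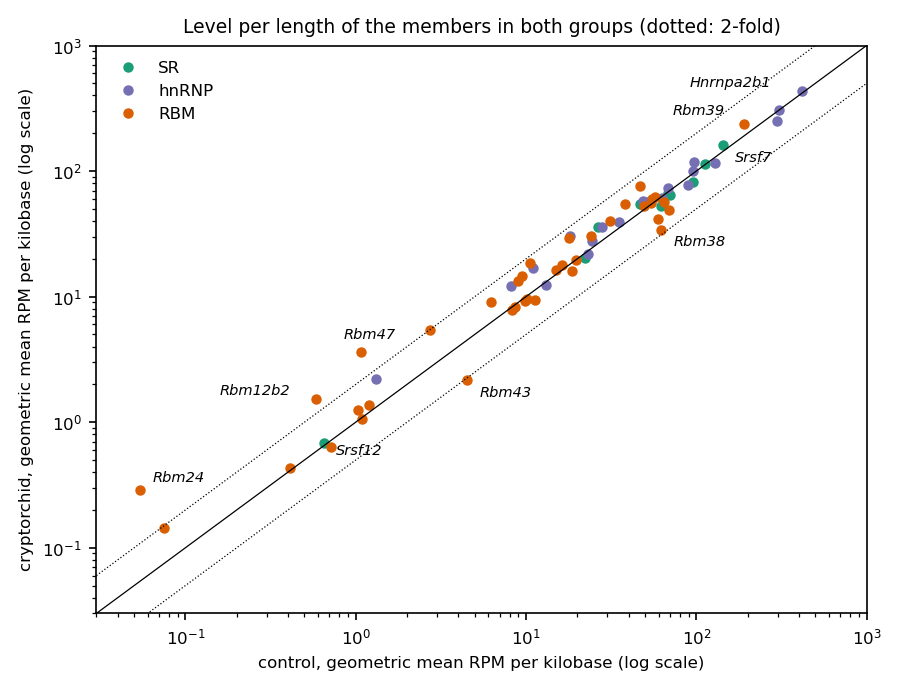
Geometric mean level of each gene in RPM per kilobase of mRNA in control (x axis) and cryptorchid libraries (y axis), both on log scales, with the 11 SR genes in green, the 20 hnRNP genes in violet and the 38 RBM genes in orange. The solid line marks equal levels and the dotted lines a 2-fold difference, which among genes above 10 RPM per kilobase none exceeds.

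To ask whether cryptorchidism altered the mRNA of these factors, the deposited log2 RPM values of the groups were compared with limma. In this unpaired fit no SR and no hnRNP gene passed an unadjusted *P* of 0.05 in either direction. Of the 38 RBM genes, *Rbm47*, *Rbm48*, *Rbm27* and *Rbm24* were higher and *Rbm38* was lower in cryptorchid spermatogonia. The 4 higher genes were 5.8% of the 69, while 5.67% of all tested genes were higher at this threshold, and the 1 lower gene was 1.45% of the 69 against 3.82%. Only *Rbm24* and *Rbm47* also reached a 2-fold difference (2.9% of the 69 against 5.92% of tested genes). None of the 69 passed after Benjamini-Hochberg adjustment over all genes, whereas 0.0118% of tested genes did (2 genes). With voom on the recovered reads, *Rbm47* and *Rbm24* were higher, *Rbm38* was lower and again none passed after adjustment, so that 4.35% of the 69 passed the unadjusted threshold against 10.8% of tested genes. In none did every cryptorchid library lie above or below every control library (0.839% of tested genes).

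The middle of the 69 differences was near that of all genes. The median log2 fold change was 0.13 over the 69 and 0.10 over all tested genes, with medians of 0.01 for SR, 0.13 for hnRNP and 0.13 for RBM genes. In 44 of the 69 (63.8%) the cryptorchid mean was the higher one, as in 56.7% of tested genes. Differences within 0.5 of 0 on the log2 scale were found for 11 of 11 SR genes, 16 of 20 hnRNP genes, 22 of 38 RBM genes and 58.5% of tested genes. The 95% confidence interval of the difference stayed within 2-fold either way for 38 of the 69 genes (55.1%), namely 8 SR, 15 hnRNP and 15 RBM genes, against 25.3% of tested genes. For these 38, a 2-fold difference in the group mean lay outside the interval. A further 26 genes did not pass the threshold and had intervals reaching past 2-fold, so these libraries did not bound the difference within 2-fold. The 69 genes were more abundant than tested genes as a whole, with a median control level of 5.99 log2 RPM against 4.19. Their spread within groups was smaller, with a median residual SD of 0.60 against 0.79. The part of level and spread in the shares above was not tested.

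**Figure D2:**
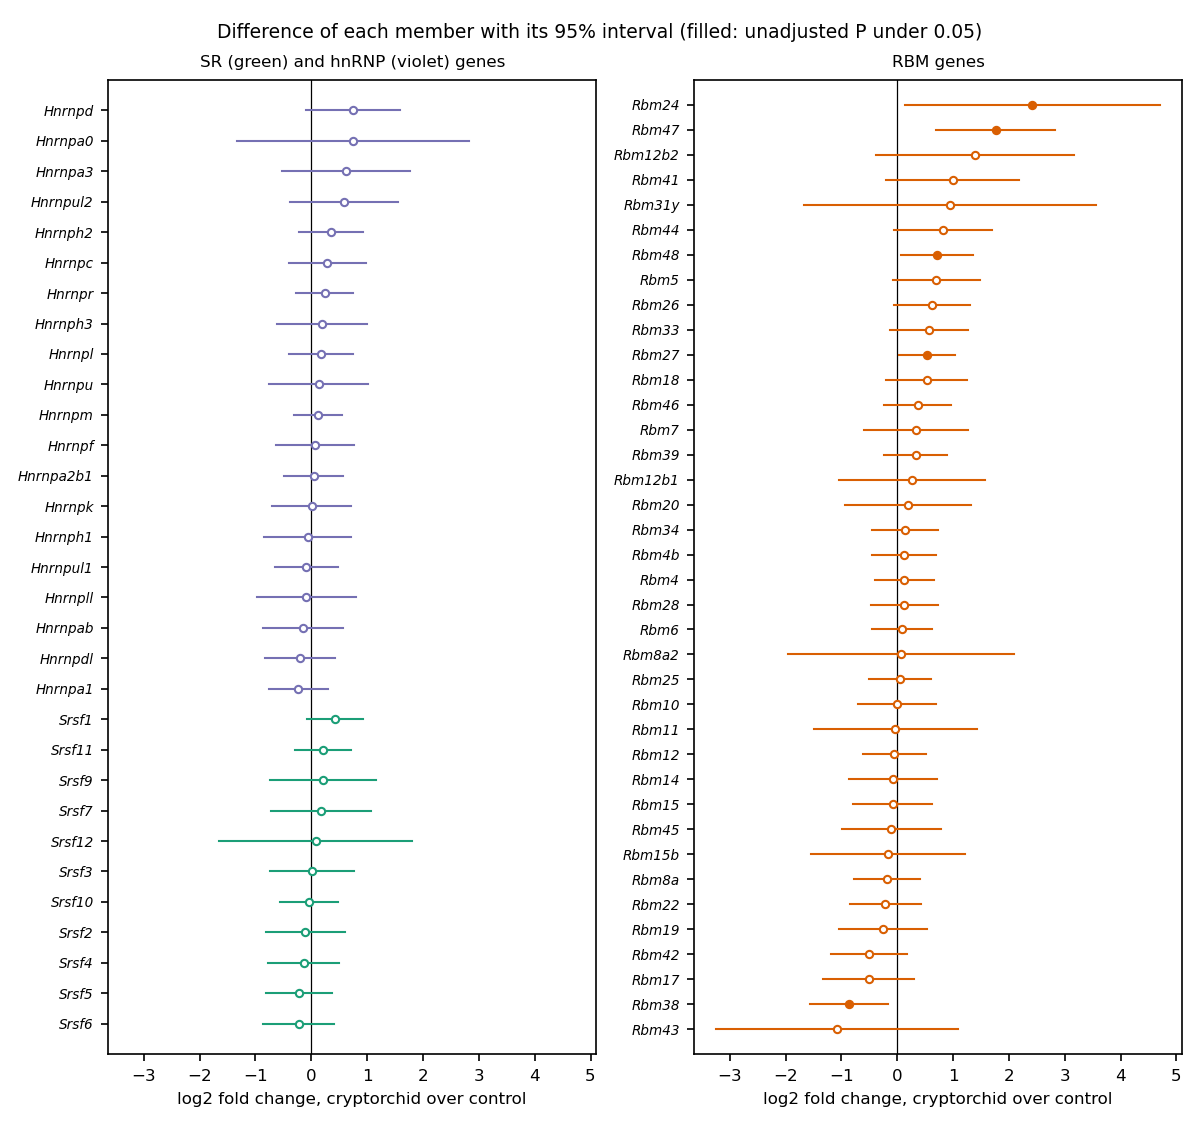
Log2 fold change of each gene (cryptorchid over control, x axis) with its 95% confidence interval from limma, SR genes in green and hnRNP genes in violet on the left and RBM genes in orange on the right. Filled points mark the 5 RBM genes with an unadjusted P under 0.05, and the widest intervals belong to genes with few reads such as Rbm31y and Rbm24.

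*Rbm47* encodes a splicing regulator that also acts as cofactor of the RNA-editing enzyme APOBEC1 and is best known from epithelia. It lies on chromosome 5 of GRCm38 (66016549 to 66173118, minus strand). In log2 RPM it was at 2.56, 1.15, 2.11, 3.37 and 2.35 in control 1 to 5, and in the cryptorchid group it ranged from 3.15 to 5.20 with a median of 3.80. Only control 4 reached into the cryptorchid range, and within each set the groups did not overlap. The difference was 1.77 ± 0.51 (SE) on the log2 scale, a 3.40-fold higher level (95% confidence interval 1.62 to 7.13), with an unadjusted *P* of 0.00269 and an adjusted *P* of 0.244. It was 1.44 within set 1 (unadjusted *P* = 0.0987 in those 6 libraries alone) and 1.73 within set 2 (unadjusted *P* = 0.0118). An exact two-sided rank sum test over the libraries gave *P* = 0.0101. The level was low in both groups, 1.07 and 3.63 RPM per kilobase, and rested on 23 to 198 reads per library. In bulk libraries, more cells that express a gene and more RNA per cell cannot be told apart. As given above, 3 endothelial genes were also higher in the cryptorchid libraries, at sums of 10.0 to 52.6 RPM over 7 genes, and their part in the *Rbm47* difference was not tested.

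*Rbm48*, whose product is a component of the minor spliceosome that removes the rare U12-type introns, was at 5.24, 4.86, 4.18, 4.55 and 4.90 log2 RPM in control 1 to 5. In the cryptorchid group it ranged from 4.35 to 5.84 with a median of 5.63. All cryptorchid libraries but replicate 3 lay above every control library. The difference was 0.71 ± 0.31 (SE), or 1.64-fold, with an unadjusted *P* of 0.0332 and an adjusted *P* of 0.479 (0.42 within set 1 and 0.94 within set 2; exact two-sided rank sum *P* = 0.0303). With voom (0.65) the call ended, and set 1 alone did not pass it (unadjusted *P* = 0.453 with limma). Leaving out control 3 or 4, or cryptorchid 1, 4, 5 or 6, also ended it, with differences from 0.57 to 0.68.

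*Rbm27* encodes an RNA-binding protein linked to the nuclear RNA exosome, as does its close relative *Rbm26*. It was at 5.43, 5.19, 5.10, 5.45 and 5.26 log2 RPM in control 1 to 5 and between 5.33 and 6.15 in the cryptorchid group (median 5.84). Only cryptorchid 1 lay inside the control range. The difference of 0.53 ± 0.24 (SE), 1.44-fold, had an unadjusted *P* of 0.0380 and an adjusted *P* of 0.490, with 0.36 within set 1 and 0.62 within set 2 (exact two-sided rank sum *P* = 0.0101). The call ended under median centring (0.46), with voom (0.51) and on leaving out control 2, 3 or 5 or cryptorchid 4, 5, 6 or 7 (0.47 to 0.53), and set 1 alone did not pass it (unadjusted *P* = 0.435). For *Rbm26* the difference was 0.62 ± 0.32 (SE) with an unadjusted *P* of 0.0709.

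*Rbm24* is known as a splicing regulator of heart and skeletal muscle. It was hardly detected, with 0, 1, 0, 14 and 2 reads in control 1 to 5 and 1 to 19 reads in the cryptorchid libraries, 81 reads in all. In set 1 the cryptorchid libraries had 19, 17 and 8 reads against at most 1 in the controls, while in set 2 control 4 had the most reads. The fitted difference of 2.42 (unadjusted *P* = 0.0392, adjusted *P* = 0.493) rests on the value given to libraries without reads. It was 4.47 within set 1 and -0.46 within set 2. Whether it differed between the sets was tested in limma, with an unadjusted *P* of 0.0139 that did not pass after adjustment. With voom it was 3.29 (unadjusted *P* = 0.00871), whereas with array weights it was 1.10, with a common floor 0.95 and with log2(RPM + 1) 0.52, and these last 3 did not pass the threshold. The exact two-sided rank sum test gave *P* = 0.149.

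*Rbm38* encodes a p53-inducible protein that binds and stabilizes mRNA of cell cycle inhibitors such as *Cdkn1a* and also regulates splicing. It was well covered, with 127 to 4042 reads per library, and lies on chromosome 2 (173020498 to 173034734, plus strand). It was at 6.72, 7.13, 7.04, 7.05 and 6.55 log2 RPM in control 1 to 5 and between 4.77 and 7.15 in the cryptorchid group, with a median of 5.94. All cryptorchid libraries except replicate 3, which was the highest of the 12, lay below every control library. The difference was -0.86 ± 0.33 (SE), a ratio of 0.550 (95% confidence interval 0.338 to 0.894), with an unadjusted *P* of 0.0188 and an adjusted *P* of 0.430 (exact two-sided rank sum *P* = 0.0480). It was -0.27 within set 1, where the groups overlapped (unadjusted *P* = 0.555 with limma in that set alone). Within set 2, where they did not overlap, it was -1.26 (unadjusted *P* = 0.00521). Spermatid genes were lower in the same group, as given above, and their part in the *Rbm38* difference was not tested.

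**Figure D3:**
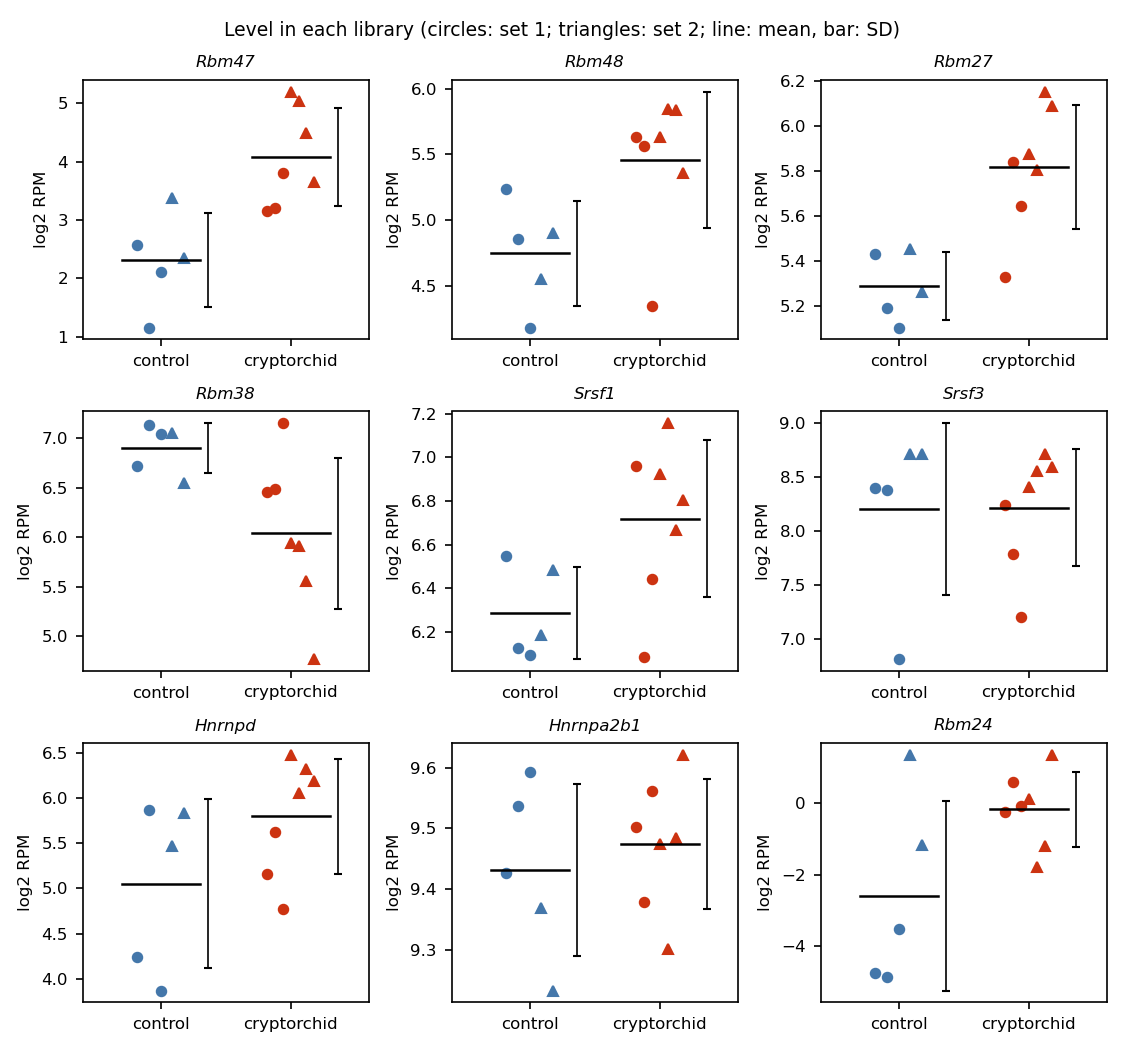
Level in log2 RPM (y axes, each with its own range) of 9 genes in every control (blue) and cryptorchid (red) library, circles for set 1 and triangles for set 2, with the mean as a line and the SD as a bar beside it. For Rbm47, Rbm48 and Rbm27 the cryptorchid libraries sit higher with 1 control or 1 cryptorchid library crossing over, for Rbm38 they sit lower except for replicate 3, and for Srsf3 and Hnrnpa2b1 the groups share one range.

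All 11 SR genes had differences within 0.5 of 0 on the log2 scale, but for *Srsf7*, *Srsf9* and *Srsf12* the interval reached past 2-fold. *Srsf1*, the founding member of the family, came closest to the threshold among those with a higher cryptorchid mean. It was at 6.55, 6.13, 6.09, 6.19 and 6.48 log2 RPM in control 1 to 5 and between 6.09 and 7.16 (median 6.80) in the cryptorchid group, where all but replicates 2 and 3 exceeded every control library. The difference was 0.43 ± 0.24 (SE), with an unadjusted *P* of 0.0878 and an adjusted *P* of 0.596, and was 0.24 within set 1 and 0.55 within set 2. It passed the unadjusted threshold with array weights (0.53) and without cryptorchid 2 (0.54). *Srsf5* came closest among those with a lower cryptorchid mean, at -0.22 ± 0.28 (SE, unadjusted *P* = 0.443), with a control range of 6.08 to 7.60 log2 RPM and a cryptorchid range of 6.39 to 7.41. Without control 3, its lowest library, the difference was -0.49 and passed the unadjusted threshold. *Srsf3*, a small SR protein that also takes part in mRNA export, was at 8.40, 8.38, 6.82, 8.71 and 8.71 log2 RPM in control 1 to 5 and between 7.20 and 8.72 in the cryptorchid group. The groups covered the same range, and the difference was 0.01 (95% confidence interval -0.73 to 0.76). Its sign depended on the scaling, with -0.06 under median centring and -0.13 with a term for the sets. *Srsf7*, its close relative, differed by 0.17 (-0.72 to 1.07) over all libraries and by -0.16 within set 1 and 0.09 within set 2. *Srsf12* had 0 to 79 reads per library and gave an interval of -1.65 to 1.81, too wide to place it.

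The abundant hnRNP genes had nearly the same level in both groups. *Hnrnpa2b1* was at 9.43, 9.54, 9.59, 9.37 and 9.23 log2 RPM in control 1 to 5 and between 9.30 and 9.62 in the cryptorchid group. The SD was 0.14 in control and 0.11 in cryptorchid libraries, and the difference was 0.04 (95% confidence interval -0.49 to 0.58), or -0.02 under median centring. *Hnrnpk* differed by 0.01 (-0.70 to 0.71) and ranged from 9.05 to 10.40 in control and 8.83 to 10.29 in cryptorchid libraries, with a change of sign to -0.06 under median centring. *Hnrnpa1*, a repressor of exon inclusion, had the lowest *P*-value among hnRNP genes with a lower cryptorchid mean, at -0.23 ± 0.25 (SE, unadjusted *P* = 0.362), with 8.73 to 9.40 log2 RPM in control and 8.50 to 9.21 in cryptorchid libraries. *Hnrnpd*, which binds AU-rich elements and speeds or slows mRNA decay, had the lowest among those with a higher mean. It was at 4.24, 5.86, 3.87, 5.47 and 5.83 log2 RPM in control 1 to 5 and between 4.77 and 6.48 (median 6.05) in the cryptorchid group. The difference of 0.75 ± 0.40 (SE) had an unadjusted *P* of 0.0801 and an adjusted *P* of 0.583, and was 0.53 within set 1 and 0.61 within set 2. It passed the unadjusted threshold with array weights (0.73) and without control 2 (0.95), control 5 (0.94) or cryptorchid 3 (0.92). *Hnrnpk* and *Hnrnpa1* share 40.0% and 50.2% of their transcript bases with gene copies elsewhere in the genome, so their levels are less certain than that of *Hnrnpa2b1*, which shares none.

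Among the other RBM genes, *Rbm39* was at 9.36, 8.91, 8.54, 8.96 and 9.08 log2 RPM in control 1 to 5 and between 8.81 and 9.60 in the cryptorchid group (median 9.39). The groups overlapped, and the difference was 0.33 ± 0.27 (SE, unadjusted *P* = 0.241). *Rbm42*, whose product binds hnRNP K, differed by -0.50 ± 0.32 (SE, unadjusted *P* = 0.138), with 0.05 within set 1 and -0.94 within set 2. It passed the unadjusted threshold with array weights (-0.75), without control 3 (-0.69) and without cryptorchid 2 (-0.67). As 92.4% of its exon bases are shared with the read-through gene *Gm21982*, its value is that of both. *Rbm43*, *Rbm8a2* and *Rbm31y* lacked reads in 1, 1 and 7 libraries. *Rbm43* had 30 to 262 reads in 11 libraries and none in cryptorchid 2, and its difference of -1.08 had an interval of -3.24 to 1.09, or was -0.11 without that library. *Rbm8a2*, a copy of the exon junction complex gene *Rbm8a*, had 0 to 29 reads, and the Y-linked *Rbm31y* had 0 to 8, and neither could be placed. The next 3 genes, which have roles in germ cells, were named after their values were seen. *Rbm44*, which encodes a protein of the bridges between germ cells, differed by 0.82 ± 0.42 (SE, unadjusted *P* = 0.0662). *Rbm5*, needed for spermatid differentiation, differed by 0.70 ± 0.37 (unadjusted *P* = 0.0733), and *Rbm46*, needed for entry into meiosis, by 0.37 ± 0.28 (unadjusted *P* = 0.213).

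The comparison was also made within each set of libraries. Within set 2 alone, 15 of the 69 genes were higher and 4 were lower at an unadjusted *P* of 0.05, against 8.83% and 8.50% of tested genes, and none passed after adjustment. The higher genes were *Hnrnpd*, *Hnrnpr*, *Hnrnpu*, *Hnrnpul2*, *Srsf1* and 10 RBM genes, among them *Rbm47* (1.73), *Rbm44* (1.06), *Rbm48* (0.94) and *Rbm46* (0.72). The lower ones were *Rbm38* (-1.26), *Rbm42* (-0.94), *Srsf5* (-0.42) and *Rbm8a* (-0.38). Within set 1 alone, *Rbm24* was higher and none was lower, against 1.70% and 2.04% of tested genes. The sign of the difference was the same in both sets for 39 of the 69 (56.5%), against 63.9% of tested genes. Set 2 held 2 control libraries and set 1 held 3, and the set 2 libraries were shallower. The counts differ, but a difference between sets was not shown for these genes, since in the test of the difference itself only *Rbm24* had an unadjusted *P* under 0.05 and 0 genes of the table passed after adjustment. The sets themselves differed at an unadjusted *P* of 0.05 in 15 of the 69 genes (21.7%, against 23.3% of tested genes), and *Hnrnpa3*, *Srsf7*, *Rbm31y* and *Rbm5*, higher in set 2, and *Hnrnpab*, lower there, passed after adjustment (5 of the 69, or 7.25%, against 5.92% of tested genes). *Hnrnpa3* was higher in set 2 by 1.97 ± 0.27 on the log2 scale (SE), more than any condition difference of an hnRNP gene.

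**Figure D4:**
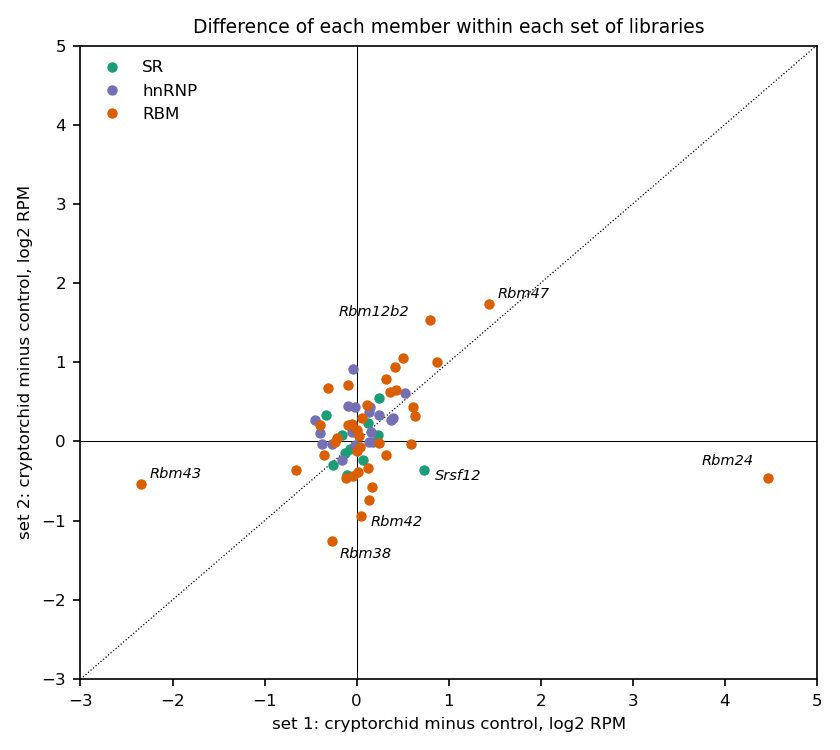
Difference in mean log2 RPM (cryptorchid minus control) of each gene within set 1 (x axis) and within set 2 (y axis), SR genes in green, hnRNP genes in violet and RBM genes in orange, with a dotted line of equality. Rbm47 lies close to the line at 1.44 and 1.73, while Rbm24 and Rbm43 are far from 0 within set 1 and Rbm38 and Rbm42 within set 2.

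Other parts of the splicing machinery were counted from lists, at the same unadjusted threshold and with the same backgrounds of 5.67% higher and 3.82% lower. Of 9 tested SR protein kinases and phosphatases, 3 were higher and none was lower, all of them kinases. *Clk4* differed by 0.84 ± 0.35 (SE, unadjusted *P* = 0.0291), *Clk2* by 0.79 ± 0.29 (unadjusted *P* = 0.0141) and *Prpf4b* by 0.76 ± 0.32 (unadjusted *P* = 0.0265), and each was higher within both sets. Among 28 SR-related proteins and co-activators only *Rnps1* passed, with a difference of -0.49 on the log2 scale. Among 30 Sm, U1 and U2 proteins *Htatsf1* was higher (0.59) and *Snrpc*, a U1 subunit, lower (-0.80). Among 48 tri-snRNP and catalytic step proteins the helicase genes *Ddx23* (1.02) and *Dhx38* (-0.89) passed in opposite directions.

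Of 14 genes of the exon junction complex and nonsense-mediated decay, the paralogs *Upf3b* and *Upf3a* passed in opposite directions. *Upf3b*, an activator of decay, was at 3.61 ± 0.99 log2 RPM in control and 5.63 ± 0.68 in cryptorchid libraries, a difference of 2.02 ± 0.44 (SE, unadjusted *P* = 0.000214, adjusted *P* = 0.129). *Upf3a* differed by -0.83 ± 0.34 (SE, unadjusted *P* = 0.0247), and both differences kept their size within each set (1.99 and 1.63 for *Upf3b*, -0.84 and -0.85 for *Upf3a*). Of 62 other RNA-binding splicing regulators, 4 were higher and 2 were lower. *Rbfox1*, known from neurons and muscle, differed by 1.27 ± 0.33 (SE, unadjusted *P* = 0.00119), *Celf6*, at a low level of -0.56 log2 RPM in control libraries, by 2.59 ± 0.89 and *Rbms3* by 0.74 ± 0.33. The lower ones were *Pcbp4* (-1.05 ± 0.33) and *Ptbp1* (-0.79 ± 0.33), the polypyrimidine tract protein that represses exons. No gene of these lists passed after adjustment with limma. *Rbm3*, left out by the rule, differed by -0.67 ± 0.36 (SE, unadjusted *P* = 0.0821) and the related cold-inducible *Cirbp* by -1.12 ± 0.32 (unadjusted *P* = 0.00287, adjusted *P* = 0.248). For *Rbm3* the difference was -0.53 within set 1 and -1.09 within set 2. With a term for the sets in limma it was -0.80 and passed the unadjusted threshold (unadjusted *P* = 0.0217, adjusted *P* = 0.344).

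Levels were also compared between genes across libraries. Over the 52 genes with at least 100 reads in every library, the deviations from the group means of the 12 libraries had a median correlation of 0.288 between pairs of genes, with 5% of pairs below -0.61 and 5% above 0.85. These deviations share library depth and the sets, and the value is a description only. The median of the 11 SR genes was lowest in control 3 (6.08 log2 RPM, against 7.15 to 7.53 in the other controls) and cryptorchid 3 (6.40, against 6.67 to 7.26), so the library numbered 3 was at the low end of both groups.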

How the data were processed

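RNA-seq of 12 Smart-seq2 libraries was used. The authors trimmed reads with Trim Galore (0.6.6 in the submitters' processing notes), mapped them to mm10 with HISAT2 (2.1.0), used SeqMonk for counting over protein-coding genes and deposited the result as log2 RPM, not as counts. Smart-seq2 carries no molecular identifiers, and the counting strand was not given in the sources used here. Reads were recovered from the steps of the RPM values. The read numbers checked, which left out the highest ones, all came out whole within 0.02 read. A gene without reads holds the value of 0.9 reads. Read numbers carry counting error of their own, and amplified reads are not independent molecules.

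Groups were compared with limma 3.58.1 (lmFit and eBayes with trend, R 4.3.3) on the 16932 genes whose mean RPM exceeded -1 in log2, unpaired, two-sided, with Benjamini-Hochberg adjustment over all of them. A call is an unadjusted *P* under 0.05 unless stated. Single genes were also compared by an exact rank sum test (Python 3.11.15, scipy 1.17.1). The unpaired limma fit was tested on simulated data. Replicates of a group differed by 13.5 to 265 times sampling noise (31 pairs), so none was counted as 1 library with another. Levels per kilobase used the median length of GENCODE vM21 coding transcripts (GRCm38), and promoter windows came from RefSeq.

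The genes, the lists and the tests were chosen with earlier results of these data known. Genes given with values passed the unadjusted threshold, had the smallest *P*-value of a family in either direction, were among the top 2 of a family per kilobase or lacked reads in at least 1 library. From each pathway list, up to 3 genes per direction past the threshold were named. Alternatives were median centring, quantile normalization, log2(RPM + 1) and log2(RPM + 0.1), no filter and a filter at 2, array weights and voom on recovered reads. Others were a block for the replicate number, a term for the sets and each set alone, the ratio of mean RPM, and leaving out each library. A common floor of -1.92 log2 RPM was added after seeing the data.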

Additional observations from a re-analysis of the deposited data

Results flagged for a closer look

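Among the 19 genes given with values, 38 groups of libraries were searched for a library far from the rest of its group. Chance gives this in about 1 in 20 groups, and 5 were found. *Rbm43* and *Srsf12* were named only because a library lacked reads, so that rate does not apply to them. *Rbm48* was at 4.35 log2 RPM in cryptorchid 3 (171 reads), whereas the nearest cryptorchid library was at 5.36. In control 3, *Srsf5* was at 6.08 (691 reads, next 7.35) and *Srsf3* at 6.82 (1151 reads, next 8.38). These 2 values come from the same library, and both genes were well covered in it. *Rbm43* had no reads in cryptorchid 2, where it holds the value -3.63, and at least 30 reads in every other library. *Srsf12* had no reads in cryptorchid 6, where it holds -2.34. The cause of these values was not tested.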

How the results depend on the processing

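The number of higher genes, 4 over all libraries, was 13 with array weights, 2 with voom, 1 in set 1 alone and 15 in set 2 alone. The number of lower genes, 1 over all libraries, was 2 with array weights, 0 in set 1 alone and 4 in set 2 alone. After adjustment 0 genes passed over all libraries and 2 with array weights, *Rbm47* (adjusted *P* = 0.0386) and *Rbm38* (0.0483), which is 2.9% of the 69 against 2.81% of all tested genes. The unadjusted threshold was passed by 21.7% and 20% with array weights and by 4.35% and 10.8% with voom. Leaving out 1 library gave 1 to 8 higher genes (8 without cryptorchid 2 or 3, 2 without cryptorchid 5, 6 or 7, and 1 without cryptorchid 4, while the share of all genes was 7.41%, 7.49%, 4.21%, 4.9%, 4.58% and 4.35% without cryptorchid 2, 3, 5, 6, 7 and 4) and 1 to 4 lower genes (4 without control 3, 2 without cryptorchid 2, with 6.69% and 3.95% of all genes). The median log2 fold change stayed between -0.04 and 0.20 under every alternative. The cause of these shifts was not tested.

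Replicate numbers are shared between the groups. Deviations of same-numbered libraries correlated at 0.35, 0.36, 0.41, 0.25 and 0.05 for numbers 1 to 5, and 4 of these 5 pairs were each other's best match, a hint from the data and not from the design. With the replicate number as a block, 12 genes were higher, 2 were lower, and *Rbm47* (adjusted *P* = 0.0260) and *Rbm5* (0.0247) passed after adjustment, 2.9% of the 69 against 5.6% of all genes. The calls included *Srsf1* (0.43), *Hnrnpd* (0.56), *Hnrnpc* (0.33) and *Hnrnph2* (0.40), whereas *Rbm27* (0.41) and *Rbm24* (2.32) lost theirs. The block called 20.3% of the 69 and 22.2% of all genes. Under it *Srsf7* was at -0.10, *Srsf3* at -0.16 and *Rbm8a2* at -0.17.

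Some named genes changed sign under an alternative. Median centring gave -0.056 for *Srsf3*, -0.024 for *Hnrnpa2b1*, -0.062 for *Hnrnpk* and -0.0016 for *Rbm8a2*. Quantile normalization gave -0.29 for *Rbm8a2* and -0.14 for *Srsf12*, log2(RPM + 1) -0.013 for *Rbm8a2*, and log2(RPM + 0.1) -0.12 for *Rbm8a2* and -0.10 for *Srsf12*. Array weights gave -0.11 for *Srsf3* and -0.010 for *Hnrnpk*, and the common floor -0.016 for *Rbm8a2*. A term for the sets gave -0.045 for *Srsf7*, -0.13 for *Srsf3*, -0.033 for *Hnrnpk* and -0.18 for *Rbm8a2*. In set 1 alone *Srsf7* was at -0.16, *Srsf3* -0.12, *Hnrnpa2b1* -0.039, *Hnrnpk* -0.018 and *Rbm42* 0.045. In set 2 alone *Rbm24* was at -0.46, *Srsf3* -0.14, *Hnrnpk* -0.050, *Rbm8a2* -0.57, *Srsf12* -0.36 and *Rbm31y* -0.027. Leaving out 1 library gave -0.0069 to 0.083 for *Hnrnpa2b1*, -0.15 to 0.19 for *Hnrnpk*, -0.54 to 0.47 for *Rbm8a2*, -0.25 to 0.64 for *Srsf12*, -0.34 to 0.18 for *Srsf3* and -0.21 to 0.40 for *Srsf7*. Of 490 values of single genes under alternatives, 384 kept their direction and side of the threshold, 36 fell back behind it, 17 passed it and 53 changed sign.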
